A study of Mus musculus with 63 samples.

Results

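The genes described here encode AMP-activated protein kinase (AMPK), and they were taken as the 7 rows of the expression table with the symbols Prkaa1, Prkaa2, Prkab1, Prkab2, Prkag1, Prkag2 and Prkag3, out of 20183 genes in all. The question put to them was how Prkag1, a gene that the study itself singled out from these cells, compared with the other subunits in neurons with and without a response to light. Because of that choice, the difference of Prkag1 between the groups is given as a description. Somata were drawn into a pipette in living wild type C57BL/6 mice of 70 days, in layer 2/3 of V1, the primary visual cortex. How often its calcium signal answered repeated light stimuli made a cell either LS (light-sensitive) or NS (not light-sensitive), and 46 LS and 17 NS cells were sequenced by Smart-seq2, which copies full-length mRNA of 1 cell into cDNA and amplifies it by PCR. Filters were applied to the deposited values as the study words them, and 35 LS and 12 NS cells remained. These 47 cells are not the study's own selection. The marker scores removed 13 cells here, more than in the study, and the mitochondrial limit removed 0, fewer than in the study, so the form of either filter may differ. All values below are of these 47 cells unless stated. No mouse is named for any cell, so each group stands as 1 sample, no test between LS and NS cells was made, and every SD is the spread between cells.

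AMPK is an energy sensor made of a catalytic alpha subunit, a beta subunit that holds the complex together and binds glycogen, and a gamma subunit that binds AMP, ADP and ATP. When ATP runs low, AMP on the gamma subunit together with phosphorylation of the alpha subunit by an upstream kinase switches the complex on, and it then restrains ATP-consuming synthesis and favours ATP production. Each subunit class has more than one gene, and a working complex needs one product of each class. Neurons are known for a high and variable use of ATP at synapses and ion pumps, and AMPK has been studied in them for that reason.

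The libraries of the groups were not alike, which touches every value below. The reads on listed genes, recovered from the expression values, ran from 366363 to 2509199 in LS cells (median 871506) and from 148253 to 882983 in NS cells (median 316260). The mean level of 1031 odorant, vomeronasal and taste receptor genes, known mainly from sensory tissue, was set against the level that the cell's reads would give if spread evenly over all exons. This index had a median of 2.56% in LS cells and 42.6% in NS cells, and 4 of 35 LS and 9 of 12 NS cells were at 10% or more. By markers, 30 LS cells had more Slc17a7 and Neurod2 than Gad1 and Gad2 (glutamate-marked), 4 had the opposite (GABA-marked) and 1 had none of these (unmarked), against 2, 6 and 4 NS cells. The 2 glutamate-marked NS cells, NS_8 and NS_9, had receptor-gene levels of 120% and 51.6%, so values in glutamate-marked cells rest on these 2 on the NS side. The summed level of 5 general neuron markers ran from 0 to 1323 FPKM in LS cells (median 690) and from 0 to 1182 FPKM in NS cells (median 10.7), with all 5 genes read in both groups. The ranges of summed markers of other cells overlapped between the groups, and blood and endothelial markers reached far higher in LS cells. Reads of the 2 haemoglobin genes were present in 15 LS and 4 NS cells, with sums from 0 to 41309 and from 0 to 53.8 FPKM. The 3 endothelial markers had reads in 10 and 4 cells, with sums from 0 to 540 and from 0 to 22.9 FPKM and with Cldn5 at 0 in NS cells. The 5 microglial markers had medians of 98.1 FPKM (0 to 1279) in LS and 12.4 FPKM (0 to 4728) in NS cells, the 5 astrocyte markers 53.5 (0 to 967) and 50.9 (0 to 941), and the 5 oligodendrocyte markers 8.53 (0 to 91.7, with Olig1 at 0) and 1.68 (0 to 1136, with Olig2 at 0). The part of depth, of the receptor-gene level and of cell class in the differences below was not tested.

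On the scale of log2 ratios of mean FPKM over the 47 cells, Prkag1 differed most between LS and NS cells among the 7 subunits. In FPKM itself Prkab1 differed more, with an LS minus NS difference of -25.9 FPKM against 15.5 FPKM for Prkag1. Prkag1 had reads in 22 of 35 LS cells and in 1 of 12 NS cells, and its mean FPKM (fragments per kilobase of exon for every 1000000 reads) was 15.6 ± 26.3 (SD, n = 35) in LS and 0.0972 ± 0.337 (SD, n = 12) in NS cells. Of the other 6 genes, Prkag3 was lower in LS cells beyond the same limit, and Prkaa1, Prkaa2, Prkab1, Prkab2 and Prkag2 stayed within it. The limit was a log2 ratio of mean FPKM of at least 2.5 in size, with a mean of at least 1 FPKM in the higher group. Its fold was taken from the study, which set it on another fold change together with an adjusted p-value, so that a gene past the limit here is not a call of the study. Over all 16760 genes with such a mean, 20.5% passed it as higher in LS cells and 23.7% as lower, so 1 of 7 subunits in each direction was no larger a share than among genes in general. All 7 subunits reached the mean. Prkag1 did so through its LS cells alone, and the other 6 in both groups.

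**Figure D1:**
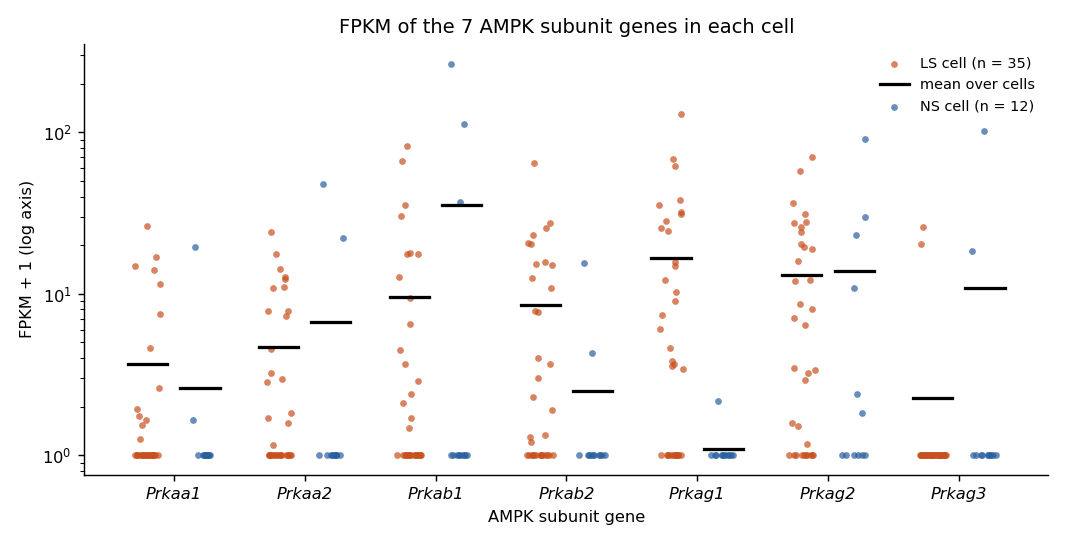
FPKM + 1 (log axis) of each AMPK subunit gene in each of the 35 LS and 12 NS cells, with a bar at the mean over cells. Many cells sit at 0 FPKM for every gene, 22 LS cells lie above 0 for Prkag1, and the only NS cell above 0 for Prkag1 lies below all 22 of them.

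The gamma subunits sense the energy state of the cell, and Prkag1 encodes the gamma 1 form found in most tissues. Prkag1 lies on chromosome 15 of GRCm38 (98812797 to 98831521, minus strand), where its 3′ end overlaps the antisense gene B130046B21Rik, which is not among the listed genes. The counting is not stated to use strand, so reads of the antisense partner cannot be told apart from reads of Prkag1 in the overlap.

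The lowest, median and highest LS cells had 0, 3.62 and 129 FPKM of Prkag1. Among the 22 LS cells with reads the range began at 2.43 FPKM and the median was 14.3 FPKM. Of the 12 NS cells, 11 were at 0 and NS_12 had 1.17 FPKM, from 2 reads. The cells of the groups thus overlapped at 0, in 13 LS and 11 NS cells, and the highest NS value was below every LS value above 0.

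The log2 ratio of the means was 7.33, and the LS mean was higher by 15.5 FPKM. With the reads of each group pooled, 936 in LS and 2 in NS cells, the log2 ratio was 5.87, with an exact interval from 4.01 to 8.92 at 95% that covers counting error only, since PCR copies without molecular identifiers are not independent molecules. Without NS_12 no NS read was left, and Prkag1 was at least 4.97 higher in LS cells on the log2 scale, from a floor of 3 reads over the NS group. On the log2(FPKM + 1) scale the difference was 2.38, and in glutamate-marked cells a bound of at least 2.10, both under the limit. At the pooled rate of the LS cells, the NS libraries would have held 117 reads of Prkag1. Among all tested genes, 9.64% had a log2 ratio at least as large as that of Prkag1, counting 1535 genes that were listed at 0 in NS cells.

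The share of cells with Prkag1 was 62.9% in LS cells (44.9 to 78.5%, exact binomial) and 8.33% in NS cells (0.211 to 38.5%), which differ by 54.5 percentage points. These intervals take the cells as independent and do not cover spread between mice. A difference in points of this size or more was seen in 8.03% of tested genes. The NS libraries were shallower, so each cell was also thinned to 140000 reads, and the expected shares were then 54.9% and 2.43%. Thinning evens out reads only, and not the molecules captured from a cell, since PCR copies of 1 molecule are thinned as separate reads. The median number of genes above 1 FPKM was 5890 in LS and 3061.5 in NS cells, which thinning does not allow for. Among the 18 LS cells no deeper than the deepest NS cell, 10 had reads of Prkag1, which is 55.6% (30.8 to 78.5%). These cells were still deeper than the NS cells, with a median of 723481 against 316260 reads. LS cells with and without Prkag1 were of similar depth, with medians of 970496 and 857947 reads and of 5716 and 5997 genes above 1 FPKM.

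**Figure D2:**
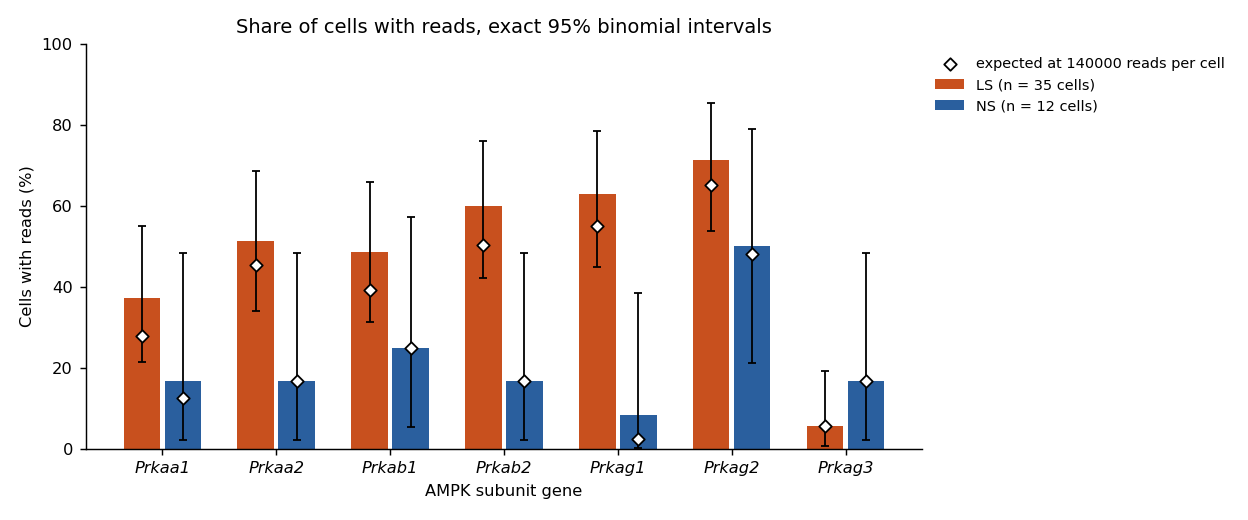
Share of LS (n = 35) and NS (n = 12) cells with reads of each AMPK subunit gene, as bars with exact 95% binomial intervals, and the share expected when each cell is thinned to 140000 reads (diamonds). The bars of Prkag1 are at 62.9% and 8.33%, whereas those of Prkag2 are at 71.4% and 50%, and for the 6 genes other than Prkag3 thinning lowers the LS bar by more points than the NS bar.

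The receptor-gene level was set beside the subunits as well. In cells with a level under 10%, Prkag1 had reads in 19 of 31 LS cells and in 0 of 3 NS cells, where a count of 0 leaves a share of up to 70.8% within the exact interval. This was not particular to Prkag1, since Prkaa1, Prkaa2, Prkab1, Prkab2 and Prkag3 were at 0 in the same 3 NS cells, and Prkab2 too had reads in 19 of 31 LS cells. With 3 reads as a floor, the log2 ratios in these cells were at least 3.77 for Prkag1, 4.22 for Prkaa2, 4.01 for Prkab1 and 4.49 for Prkab2, and at least 1.85 for Prkaa1. In cells with a level of 10% or more, Prkag1 had reads in 3 of 4 LS cells and in 1 of 9 NS cells. At the mean level of the receptor genes, NS_12 alone would have held 2.62 reads over the exon length of Prkag1, and the 12 NS cells together 37.8 reads. The NS cells had 2 reads of Prkag1 beside these 37.8, and the LS cells 936 beside 22.6. NS reads were also below that level for Prkaa1 (37 beside 107), Prkaa2 (153 beside 184) and Prkab2 (40 beside 117). They were above it for Prkab1 (387 beside 70.7), Prkag2 (585 beside 149) and Prkag3 (136 beside 84.9). In LS cells every subunit had more reads than at that level. The part of the receptor-gene level in these reads was not tested.

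The presence of Prkag1 in LS cells was not limited to one class of neuron. Of the 30 glutamate-marked LS cells, 18 had reads, with a mean of 11.5 ± 17.99 FPKM (SD) and a highest value of 67.1 FPKM. All 4 GABA-marked LS cells had reads, with 13.9 FPKM in LS_14, 27.1 in LS_15, 30.9 in LS_9 and 129 in LS_39, the highest value of all cells. The single unmarked LS cell had none.

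Among NS cells, Prkag1 was at 0 in both glutamate-marked and all 4 unmarked cells. The 2 reads of NS_12 fell in 1 of the 6 GABA-marked cells. With so few cells in a class, LS and NS cells of one class were set side by side mainly within GABA-marked cells, where 4 of 4 LS and 1 of 6 NS cells had reads. Depth differed there too, from 381925 to 1382091 reads in these LS cells and from 148253 to 882983 in these NS cells. The receptor-gene level reached 33.6% in LS_9 and 112% in NS_11. The part of depth or of that level in this difference was not tested. The other subunits were read in fewer of the GABA-marked LS cells. Prkaa2 and Prkag3 were at 0 in all 4, Prkaa1, Prkab1 and Prkab2 had reads in 1 of 4 each, and Prkag2 in 2 of 4 with a highest value of 5.44 FPKM.

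Prkag2, the gamma subunit known from inherited disease of the heart, was the subunit found in the largest share of cells of both groups. It lies on chromosome 5 (24862744 to 25100642, minus strand) and overlaps the antisense genes Prkag2os1 and Prkag2os2 and the non-coding gene 1500035N22Rik, none of them listed.

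The LS cells ran from 0 through a median of 5.44 to 69.04 FPKM of Prkag2, with reads in 25 of 35 cells. The NS cells ran from 0 through 0.412 to 89.9 FPKM, with reads in 6 of 12 cells. The ranges overlapped in full, with the highest value in an NS cell. The means were 12.1 ± 16.6 FPKM (SD, n = 35) in LS and 12.7 ± 26.2 FPKM (SD, n = 12) in NS cells, a log2 ratio of -0.08 (pooled reads -0.35, from -0.48 to -0.22).

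The NS mean of Prkag2 rested on NS_14, which held 463 of its 585 NS reads and had a receptor-gene level of 3.31%. Without NS_14 the log2 ratio was 1.07, and that of the medians over all cells was 3.72. Prkag1 and Prkag2 were close in mean level in LS cells, yet Prkag2 kept 585 reads in NS cells where Prkag1 had 2.

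Prkag3, the gamma form known from skeletal muscle, was rare. It lies on chromosome 1 (74738922 to 74749221, minus strand) and overlaps no annotated gene. Only 2 of 35 LS cells had reads, LS_4 with 24.9 FPKM and LS_17 with 19.3 FPKM, and 2 of 12 NS cells, NS_7 with 17.3 and NS_8 with 101 FPKM.

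The means of Prkag3 were 1.26 ± 5.25 FPKM (SD, n = 35) in LS and 9.89 ± 29.3 FPKM (SD, n = 12) in NS cells. The log2 ratio of -2.97 passed the limit as lower in LS cells, with a counting interval of the pooled reads from -3.32 to -2.62. It rested on 1 cell, since NS_8 held 123 of the 136 NS reads, and without NS_8 the ratio was -0.31. It was -4.12 without LS_4 and -3.76 without LS_17, and in all 63 cells it was -2.06, short of the limit. Where the receptor-gene level was under 10%, no NS cell had Prkag3 and the direction turned, to at least 0.34. The receptor-gene level was 120% in NS_8 and 102% in NS_7. At the level of the receptor genes, the NS cells together would have held 84.9 reads of Prkag3 and the LS cells 50.8, beside the 136 and 139 seen.

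**Figure D3:**
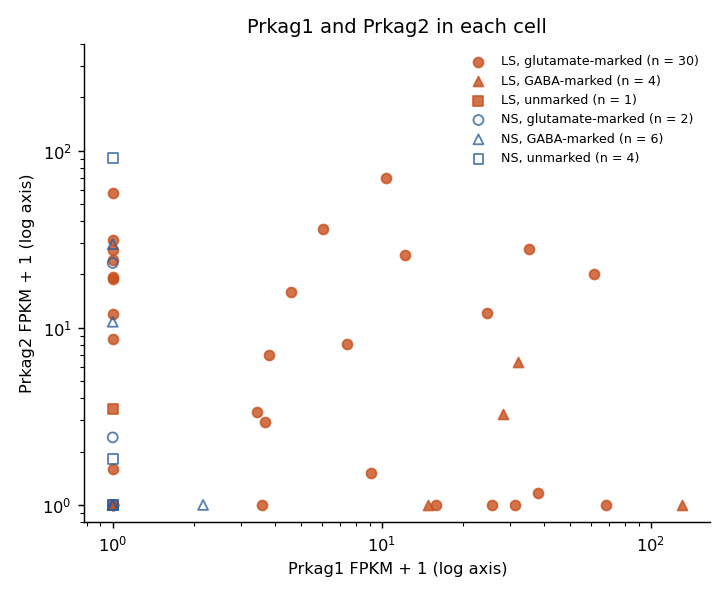
Prkag1 against Prkag2 in each cell, both as FPKM + 1 on log axes, by group (filled LS, open NS) and by marker class (circle glutamate-marked, triangle GABA-marked, square unmarked). LS cells spread along both axes and in between, with reads of both genes in 15 of 35, while all NS cells but NS_12 sit at 0 on the Prkag1 axis.

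The make-up of the gamma class was not the same in the groups. FPKM is per length, so the levels of different genes can be added. In LS cells the 3 gamma genes had a summed mean of 28.96 FPKM, of which Prkag1 gave 54.0%, Prkag2 41.6% and Prkag3 4.36%. In NS cells the sum was 22.7 FPKM, and the shares were 0.428%, 56.0% and 43.5%, the last from the same NS_7 and NS_8.

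With Prkag3 nearly absent from LS cells, the gamma FPKM of a cell was divided between Prkag1 and Prkag2, and in sparse reads one of them is often missing. Of the 32 LS cells with any gamma reads, 16 had more than 50% of their gamma FPKM from Prkag1 and 16 from Prkag2, with Prkag1 as the sole gamma gene in 7 and Prkag2 in 10. The share of Prkag1 in a cell averaged 47.4% with an SD of 42.1 percentage points. Of the 7 NS cells with gamma reads, 4 had Prkag2 alone, 2 had Prkag3 as the main form and 1, NS_12, had Prkag1 alone.

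The catalytic alpha subunits carry the kinase domain and the site that upstream kinases phosphorylate. Prkaa1 (chromosome 15, 5143861 to 5181899, plus strand, overlapping the unlisted antisense gene Gm15938) encodes alpha 1, and Prkaa2 (chromosome 4, 105029874 to 105109890, minus strand, with no overlapping gene) encodes alpha 2.

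Prkaa1 had reads in 13 of 35 LS cells, which ran from 0 through a median of 0 to 25.3 FPKM. In NS cells only NS_4 with 18.5 FPKM and NS_8 with 0.652 FPKM had reads. The groups overlapped, with means of 2.67 ± 5.89 FPKM (SD, n = 35) in LS and 1.5998 ± 5.34 FPKM (SD, n = 12) in NS cells. The log2 ratio was 0.74, and that of pooled reads 0.02 (-0.47 to 0.56). NS_4 held 36 of the 37 NS reads, and without it the ratio was 5.49, past the limit as higher in LS cells.

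Prkaa2 had reads in 18 of 35 LS cells, which ran from 0 through a median of 0.1502 to 23.3 FPKM. NS_6 with 21.2 FPKM and NS_8 with 46.9 FPKM were the only NS cells with reads, so the highest value was again an NS one. The means were 3.65 ± 5.82 FPKM (SD, n = 35) and 5.67 ± 14.3 FPKM (SD, n = 12), a log2 ratio of -0.63 (pooled reads -0.07, from -0.32 to 0.18). The direction turned without NS_8, to 0.92, and in cells with a receptor-gene level under 10%, to at least 4.22. Both alpha genes thus had reads in a larger share of LS cells, by 20.5 points for Prkaa1 and 34.8 points for Prkaa2, while the means differed by less than the SD of either group.

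The beta subunits join the alpha and gamma subunits. Prkab1 (chromosome 5, 116013586 to 116024508, minus strand) encodes beta 1 and overlaps the unlisted antisense gene Gm14508, and Prkab2 (chromosome 3, 97658193 to 97673812, plus strand) encodes beta 2 and overlaps Gm17651 on the other strand, which is not listed either.

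Prkab1 had reads in 17 of 35 LS cells, which ran from 0 through a median of 0 to 81.2 FPKM. In NS cells it had reads in 3 of 12, with 35.9 FPKM in NS_9, 111 in NS_2 and 265 in NS_8. The 2 highest values of all cells were in NS cells, while most cells of each group were at 0. The means were 8.50 ± 18.3 FPKM (SD, n = 35) and 34.4 ± 79.8 FPKM (SD, n = 12), a log2 ratio of -2.02 (pooled reads -1.59, from -1.76 to -1.42), and -0.66 without NS_8, which held 268 of the 387 NS reads. The direction turned where the receptor-gene level was under 10%, to at least 4.01.

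Prkab2 had reads in 21 of 35 LS cells, which ran from 0 through a median of 0.912 to 63.5 FPKM. Of the NS cells, NS_6 had 3.31 FPKM and NS_9 had 14.5 FPKM. The highest NS value lay inside the LS range. The means were 7.55 ± 12.8 FPKM (SD, n = 35) and 1.49 ± 4.21 FPKM (SD, n = 12), and the log2 ratio of 2.35 (pooled reads 2.19, from 1.74 to 2.68) was the second largest of the 7 and just short of the limit. Without NS_9, which held 37 of the 40 NS reads, it was 4.65. Without either NS_6 or NS_9, Prkab2 passed the limit as well, whereas the ratio was 1.43 in cells with at least 3000 genes. It was 0.27 in glutamate-marked cells, where NS_9 is 1 of 2 NS cells.

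**Figure D4:**
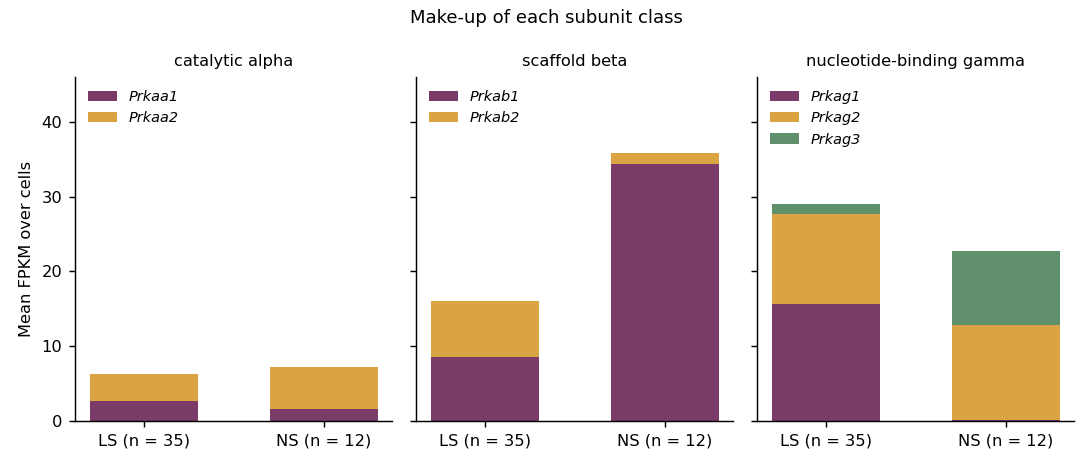
Mean FPKM over the 35 LS and 12 NS cells, stacked by gene within each subunit class. The gamma bar of LS cells is made of Prkag1 (15.6 FPKM) and Prkag2 (12.1 FPKM) with little Prkag3, that of NS cells of Prkag2 (12.7 FPKM) and Prkag3 (9.89 FPKM), and the beta bar of NS cells is almost all Prkab1 (34.4 FPKM). SDs between cells exceed every one of these means.

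Within the alpha class, Prkaa2 gave 57.7% of the summed mean FPKM in LS and 78.0% in NS cells. Within the beta class, Prkab1 gave 52.9% in LS and 95.9% in NS cells. The order of mean levels in LS cells was Prkag1, Prkag2, Prkab1, Prkab2, Prkaa2, Prkaa1 and Prkag3, and in NS cells Prkab1, Prkag2, Prkag3, Prkaa2, Prkaa1, Prkab2 and Prkag1. In both orders, neighbours differed by less than the SD between cells of the higher of the pair. The first place of Prkag1 in the LS order rested on LS_39, without which its share of the gamma FPKM was 47.3%. By the median over LS cells Prkag2 led, at 5.44 against 3.62 FPKM. In the glutamate-marked LS cells Prkag2 led by the mean, at 13.7 against 11.5 FPKM, and by the median, at 7.35 against 2.75 FPKM. With pooled reads per length the share of Prkag1 was 48.6%.

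Among all tested genes, the 7 subunits as a list did not lie far from the middle. Their median log2 ratio was -0.08, and that of the 6 without Prkag1 was -0.36, while the median of all tested genes was -0.20. In LS cells 3 of the 7 had the higher mean, as had 47.1% of all tested genes. The median difference in the share of cells with reads was 23.6 points for the 7 subunits and 14.5 points for all tested genes.

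**Figure D5:**
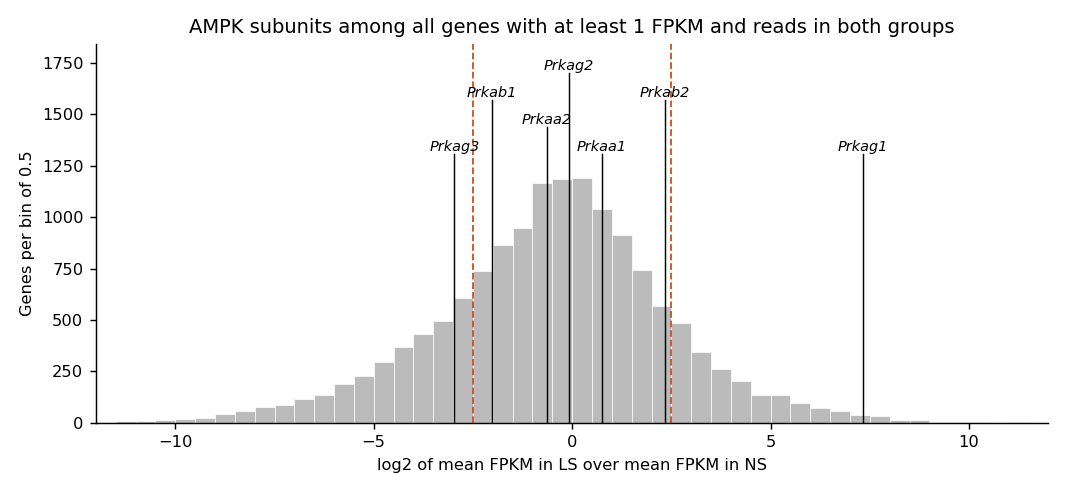
Number of genes per bin of 0.5 in the log2 ratio of mean FPKM in LS over NS cells, for tested genes with reads in both groups, with the 7 AMPK subunits marked and the limits of -2.5 and 2.5 dashed. Prkag1 at 7.33 lies in the right tail of the genes drawn, Prkab2 at 2.35 next to the upper limit and Prkag3 at -2.97 below the lower one. Not drawn are 1535 tested genes at 0 in NS cells and 752 at 0 in LS cells. With these counted, 9.64% of all tested genes had a ratio at least as large as that of Prkag1.

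Transcripts of all 3 subunit classes were more often seen together in LS cells. Genes in general were also read in more LS cells, with a median over all tested genes of 34.3% of LS and 16.7% of NS cells. Whether the 3 classes differed by more than other genes would was not tested. The LS cells had reads of 1 to 6 of the 7 genes with a median of 4, and the NS cells of 0 to 5 with a median of 1, with 0 LS and 4 NS cells without any.

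Alpha reads were present in 24 of 35 LS and 3 of 12 NS cells. Beta reads were present in 28 and 4 cells, and gamma reads in 32 and 7. All 3 classes together were found in 20 of 35 LS cells, or 57.1% (39.4 to 73.7%), and in 2 of 12 NS cells, or 16.7% (2.09 to 48.4%). At 140000 reads per cell these shares were 40.4% and 16.7%, so the difference went from 40.5 points in the full libraries to 23.8 points at 140000 reads. Among LS cells no deeper than the deepest NS cell it went the other way, with all 3 classes in 12 of 18 cells, or 66.7%. The median depth of these 18 cells was still above that of the NS cells, at 723481 against 316260 reads. The difference was 17.6 points when at least 1 FPKM was asked for and 13.3 points in glutamate-marked cells, with 2 NS cells. The NS cells with all 3 classes both had a receptor-gene level of 10% or more, and of the 3 NS cells under 10%, 0 had all 3 classes, against 17 of 31 LS cells.

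How the levels of the subunits varied together among LS cells is given as a description. Over the 35 cells and the 15 pairs of the genes other than Prkag3, Pearson's r of log2(FPKM + 1) ran from -0.25 to 0.39 with a median of -0.01. The highest were Prkaa2 with Prkab2 (0.39) and Prkab2 with Prkag2 (0.35), and the lowest were Prkab2 with Prkag1 (-0.25) and Prkag1 with Prkag2 (-0.24). These points share library depth within each cell, and in counts as sparse as these such values describe the cells only.

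The genes whose level was most like that of Prkag1 over the 35 LS cells were Wasf2 (r = 0.58), a regulator of actin branching, Csnk1g2 (0.54), a casein kinase 1 gamma form, Ost4 (0.51), a small subunit of the oligosaccharyltransferase, Nudt4 (0.50), a diphosphoinositol polyphosphate phosphohydrolase, and Strbp (0.50), an RNA-binding protein. They were the highest of 6121 genes with reads in at least 50% of LS cells, over which r ran from -0.62 to 0.58 with a median of -0.04. Their mean levels in LS cells ran from 5.29 ± 6.72 (Strbp) to 17.7 ± 24.99 FPKM (Nudt4). Unlike Prkag1, Wasf2 and Ost4 had the higher mean in NS cells, at 12.6 against 10.8 and 15.6 against 8.29 FPKM. Csnk1g2, Nudt4 and Strbp had the higher mean in LS cells. Strbp had reads in all 22 LS cells with Prkag1, but also in 11 without it, so that its reads do not mark Prkag1 cells.

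A list of 60 other genes around AMPK was then read, namely its upstream kinases, its phosphatases and partners, its relatives, its targets, and the enzymes that turn adenylates over. All 60 had a mean of at least 1 FPKM in a group. Of them 8 passed the limit as higher in LS cells (13.3%, against 20.5% of all tested genes) and 2 as lower (3.33%, against 23.7%), and their median log2 ratio was 0.15.

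Adenylate turnover enzymes set the AMP that the gamma subunit senses. Of their 8 genes 4 passed as higher in LS cells and 0 as lower, against 20.5% and 23.7% of all tested genes. This was the largest share passing as higher among the parts of the list, and a link to the subunits was not tested. The adenylate kinase genes Ak1, Ak3 and Ak5, whose enzymes pass phosphate between adenine or guanine nucleotides in the cytosol, the mitochondrial matrix and neurons, had mean FPKM of 25.6 ± 35.8, 22.3 ± 35.1 and 20.2 ± 32.04 in LS cells. Their NS means were 1.11 ± 3.83, 0.107 ± 0.370 and 1.41 ± 4.21 FPKM, and the log2 ratios 4.53, 7.71 and 3.85. Ak3 had reads in 23 of 35 LS cells and in 1 of 12 NS cells, the same NS number as Prkag1.

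Adk, the adenosine kinase that makes AMP from adenosine, had means of 21.5 ± 35.3 and 1.48 ± 5.12 FPKM in LS and NS cells (log2 ratio 3.86), with reads in 14 of 35 and 1 of 12 cells. As with the subunits, NS values rested on single cells. All 36 NS reads of Ak1 were in NS_12, 25 of the 28 of Ak5 in NS_9 and all 14 of Adk in NS_13. Without these cells the log2 ratios were at least 6.71 for Ak1, 6.68 for Ak5 and at least 6.30 for Adk, and without NS_9, which held its 2 NS reads, at least 7.02 for Ak3. Other sets of cells ended some of these calls. In all 63 cells Ak1 was at 2.01 and Ak5 at 2.12, without the marker scores Ak1 was at 1.98 and Ak5 at 2.10, in glutamate-marked cells Ak5 was at 1.59, and in cells with a receptor-gene level under 10% Adk was at 2.04.

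Of the 8 upstream genes only Map3k7, which encodes TAK1, a kinase reported to act on the alpha subunit, passed the limit, with means of 6.97 ± 15.02 and 0.127 ± 0.440 FPKM in LS and NS cells (log2 ratio 5.78). Stk11, the gene of the main upstream kinase LKB1, had means of 10.7 ± 20.8 and 12.4 ± 20.7 FPKM (log2 ratio -0.22), and Camkk2, the gene of a calcium-dependent upstream kinase, 17.4 ± 19.8 and 9.93 ± 27.7 FPKM (log2 ratio 0.81). Both were picked for their role after their values were seen, and neither passed the limit in the 47 cells. NS_12 held 1090 of the 1177 NS reads of Camkk2, and without it the ratio was 3.01, past the limit, while with pooled reads it was -0.01. Without NS_6 the ratio of Stk11 was 0.40. Of the 8 phosphatase and partner genes 0 passed in either direction, against 20.5% as higher and 23.7% as lower among all tested genes.

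Among 13 related kinases 2 passed as higher in LS cells (15.4%, against 20.5% of all tested genes) and 0 as lower (against 23.7%). Sik1, a salt-inducible kinase whose gene is switched on by cAMP signals, had means of 26.4 ± 53.0 and 0.185 ± 0.640 FPKM in LS and NS cells (log2 ratio 7.16). Mark1, a kinase of microtubule-associated proteins, had 7.28 ± 12.46 and 0.346 ± 0.858 FPKM (log2 ratio 4.40). Each had reads in 18 of 35 LS cells, and in 1 and 2 of 12 NS cells. Without NS_9, the only NS cell with Sik1, the ratio of Sik1 was at least 8.28, and that of Mark1 was 5.84. In glutamate-marked cells Mark1 was at 1.67, short of the limit.

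Of the 23 targets and downstream genes 9 had the higher mean in LS cells, as had 47.1% of all tested genes. The limit was passed by 1 as higher in LS cells (4.35%, against 20.5% of all tested genes) and by 2 as lower (8.70%, against 23.7%). Sirt1, a NAD-dependent deacetylase, had means of 2.12 ± 6.51 and 0.228 ± 0.527 FPKM (log2 ratio 3.22), and without LS_45 its ratio was 2.34, short of the limit, and without NS_16 it was 4.63. It also fell short with pooled reads (2.34), in glutamate-marked cells (2.36), with at least 3000 genes (2.30) and at a receptor-gene level under 10% (2.003). Acacb, the mitochondrial acetyl-CoA carboxylase that AMPK inhibits, had means of 1.07 ± 2.34 and 16.5 ± 20.9 FPKM (log2 ratio -3.94), with reads in 18 of 35 and 9 of 12 cells. In cells with a receptor-gene level under 10% its direction turned, to 3.76.

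Pfkfb3, a regulator of glycolysis that AMPK activates, had means of 1.63 ± 4.09 and 16.3 ± 36.3 FPKM in LS and NS cells (log2 ratio -3.32). NS_4 held 397 of its 579 NS reads, and without NS_4 the ratio of -1.96 no longer passed the limit. It was -1.29 in glutamate-marked cells and -0.12 in cells with at least 3000 genes, short of the limit as well.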

How the data were processed

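Single somata of 46 LS and 17 NS neurons were measured by Smart-seq2. The authors trimmed reads with AfterQC, aligned them to GRCm38 with STAR 2.5.3a, counted them with featureCounts and computed FPKM with scater, and the deposited table holds FPKM of 20183 protein-coding genes that they kept in the 63 cells. Of the per-cell columns 0 stayed unused.

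Cells of low cDNA content named by the study (2), with fewer than 1000 genes above 1 FPKM (1), with a mitochondrial share above 25% (0) or with a product score (any value above 0 of each marker) of astrocyte, oligodendrocyte or mixed neuronal markers above 0 (13) were removed, which left 47. The study's own filters left more cells. FPKM was averaged over the cells of a group. Rows with repeated names (4) were left out.

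Reads were recovered from the steps of FPKM, with exon lengths of the GENCODE M21 annotation for 12177 genes and lengths solved from the values for 6350, Prkag1 among them (1638 bases, against 2175 annotated), while 1652 stayed unsolved. Genes with a length held 99.2% of all non-zero values. Below 200 reads, 99.8% of these came out whole, with a tolerance of 0.01 reads and a small allowance for rounding. A common factor of all totals cannot be told from the values. Shares have exact binomial intervals and ratios of pooled reads exact conditional binomial ones, at 95%. The intervals of shares take the cells as independent, and neither kind covers spread between mice. Where a group had no read, a floor of 3 reads over the group was used for the printed ratio. In counts of genes past the limit such a gene passed if the other group reached the minimum mean. Thinning was computed exactly, without draws. The recovery and the ratios were tested on simulated data.

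The members, the gene lists and the alternatives were chosen with earlier results of these data known. Named genes were the 7 subunits, every gene of the list that passed the limit (at most 10 per direction), and the 5 highest correlations with Prkag1, besides overlapping genes and markers. Stk11 and Camkk2 were named outside this rule. The alternatives were other sets of cells, pooled reads, medians, log scales with pseudocounts of 1 and 0.1, the cell's own reads as total, thinning, other limits, and each cell left out in turn. No mouse or date is named for a cell, so batches were not examined. The tools were scipy 1.17.1, pandas 2.3.3 and numpy 2.4.6 in Python 3.11.15.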

Additional observations from a re-analysis of the deposited data

Results flagged for a closer look

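The cells that the filters removed, 11 LS and 5 NS, were left out of the main values and entered only alternatives with wider sets of cells. These removed cells held reads of the subunits above the 3 reads that a count of 0 allows. The removed LS cells had 224 reads of Prkaa1, 190 of Prkaa2, 338 of Prkab1, 647 of Prkab2, 244 of Prkag1, 387 of Prkag2 and 81 of Prkag3. Prkag1 was found in 5 of these 11 cells, with up to 67.0 FPKM in LS_16. The removed NS cells had 77 reads of Prkaa2, 5 of Prkab1, 31 of Prkab2 and 57 of Prkag2, and 3 reads of Prkag1, all in NS_17.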

How the results depend on the processing

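No paired analysis was possible because the numbers of the cells only name them and no result comes from a test. The difference of Prkag1 in the share of cells, its share of gamma FPKM in LS cells and the difference in cells with all 3 classes moved by less than their intervals or spread in every alternative run, with values of 46.9 to 63.6 points, 39.9 to 54.6% and 13.3 to 54.8 points. These yardsticks are wide. The SD of the gamma share was 42.1 points, and the 3-class share of NS cells had an interval of 2.09 to 48.4%. Staying inside them is thus little evidence of stability. With single cells left out they ran from 53.4 to 62.9 points, from 47.3 to 59.1% and from 38.96 to 48.1 points.

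The log2 ratio of Prkag1 stayed positive throughout. Where NS cells had no read it is a lower bound from 3 reads, of 3.62 in cells with at least 3000 genes, 3.77 in cells with a receptor-gene level under 10% and 2.10 in glutamate-marked cells, and it was 2.38 and 4.16 on the log2(FPKM + 1) and log2(FPKM + 0.1) scales. Single cells left out gave 4.97 (a bound, without NS_12) to 7.37.

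In the counts that follow, a gene with no read in the lower group passed the limit whatever its bound. They thus include Prkag1 in glutamate-marked cells (bound 2.10) and Prkaa1 at a receptor-gene level under 10% (bound 1.85). Subunits called higher in LS cells numbered 2 with at least 3000 genes, 5 with a receptor-gene level under 10%, 2 in glutamate-marked cells, 0 on the log2(FPKM + 1) scale and 2 at a limit of 1, and 1 to 2 with single cells left out (2 without NS_4, NS_6 or NS_9). Those called lower numbered 0 in all 63 cells, without product scores, with markers at 1 FPKM, at a receptor-gene level under 10% and on both log scales, 2 with at least 3000 genes, in glutamate-marked cells and at a limit of 1, and 0 to 1 with single cells left out (0 without NS_8). In the same settings the 60 listed genes called higher numbered 13, 26, 23, 1 and 19, with 14 on the log2(FPKM + 0.1) scale and 7 to 13 with single cells left out (13 without NS_6). Those called lower numbered 1, 5, 5, 0 and 14, with 1 on the log2(FPKM + 0.1) scale and 1 to 3 with single cells left out (1 without NS_4). The share of all tested genes that passed was not computed in these settings, which hold as few as 2 NS cells. The counts of subunits and of listed genes there thus cannot be set apart from genes in general. Under a receptor-gene level of 10%, with 3 NS cells, Prkag3 reversed to 0.34 (a bound) and Acacb to 3.76, and of the subunits short of the limit Prkaa2 turned from -0.63 to at least 4.22 and Prkab1 from -2.02 to at least 4.01. The medians turned Prkag2 from -0.08 to 3.72. The cause was not tested. The depth of NS cells limits what an absent gene there can show.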
